A study of Mus musculus with 6 samples.

Results

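The genes described here are 10 genes of brown fat identity and mitochondrial uncoupling: Ucp1, Ucp2, Ucp3, Letmd1, Fabp3, Gk, S100b, Ntrk3, Prdm16 and Ebf2. They are the rows with these symbols in a table of 35976 rows, and all 10 were found, 1 row each. The set was put together with results of the same libraries in view. Ucp1, Letmd1 and Gk had been named for higher levels with Rbm43 siRNA than with control siRNA, and Ucp1, Fabp3, S100b and Ntrk3 for lower levels with Cre virus than with GFP virus. For these 6 genes the values and differences below are a description, given with no p-value. Their calls enter only the counts over the 10 genes, from which nothing is read. Ucp2, Ucp3, Prdm16 and Ebf2 had not been named, and their adjusted p is given.

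RNA was sequenced from primary mouse adipocytes, fat cells differentiated in culture from precursors, whose depot the labels do not give. All cells carried Ppargc1a(fl/fl), that is, copies of Ppargc1a flanked by sites at which the recombinase Cre cuts. Ppargc1a encodes PGC-1alpha, a coactivator that raises transcription of thermogenic and respiratory genes in brown fat, and Rbm43 encodes a protein that binds RNA. There were 2 libraries in each of 3 groups: adenovirus encoding Cre with Rbm43 siRNA, adenovirus encoding GFP with Rbm43 siRNA, and adenovirus encoding GFP with control siRNA. Every culture was therefore infected and transfected, and Cre virus can be compared with GFP virus under Rbm43 siRNA alone, as a group with Cre virus and control siRNA was not analysed here. The 2 libraries of a group are called biological duplicates without mention of separate animals, and p-values then measure only the spread between these samples, which may be technical.

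Brown and beige adipocytes burn fuel to make heat. Their hallmark is UCP1, a carrier of the mitochondrial inner membrane that lets protons back into the matrix without making ATP, is switched on by free fatty acids and is held closed by purine nucleotides. UCP2 and UCP3 are relatives with less certain uncoupling roles: UCP2 is found in many tissues and can export metabolites from mitochondria, and UCP3 is known from muscle and brown fat. EBF2 and PRDM16 are transcriptional regulators that set and keep brown identity, and LETMD1, FABP3, glycerol kinase, S100B and the receptor TrkC (Ntrk3) bear on respiration, fuel supply and innervation.

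The promoter sequences of the 3 uncoupling proteins and of Fabp3 are shown because these genes held the widest contrast among the 10, from Ucp1 to Ucp2 with Rbm43 siRNA and down to Fabp3 with Cre virus. Each is the 250 bases before the gene's RefSeq start on build GRCm38.p6, 5′ to 3′ on the gene's own strand. The gene positions given further below come from GENCODE, whose starts can differ. The windows of Fabp3 and Ucp2 run past the GENCODE starts at 130308595 and 100493337, so part of each lies inside the GENCODE gene. RefSeq promoters were at hand for 8 of the 10 genes, all but Ntrk3 and Ebf2. Capitals mark matches, on either strand, to AGGTCA, the half-site that nuclear receptors such as the PPARs can bind, or to TGACGT, a cAMP response element half-site.
Ucp1 (chr8:83290098-83290347, plus strand): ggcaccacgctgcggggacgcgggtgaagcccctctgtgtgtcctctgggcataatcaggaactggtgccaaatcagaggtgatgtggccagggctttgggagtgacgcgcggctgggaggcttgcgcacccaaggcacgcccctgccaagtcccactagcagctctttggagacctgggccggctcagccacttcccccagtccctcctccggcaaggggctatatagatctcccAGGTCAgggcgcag
Ucp2 (chr7:100493108-100493357, plus strand): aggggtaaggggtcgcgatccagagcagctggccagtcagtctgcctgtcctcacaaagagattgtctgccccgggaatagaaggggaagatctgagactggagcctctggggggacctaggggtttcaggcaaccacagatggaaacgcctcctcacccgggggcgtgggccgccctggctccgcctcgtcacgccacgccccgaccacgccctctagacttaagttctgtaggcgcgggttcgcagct
Ucp3 (chr7:100472741-100472990, plus strand): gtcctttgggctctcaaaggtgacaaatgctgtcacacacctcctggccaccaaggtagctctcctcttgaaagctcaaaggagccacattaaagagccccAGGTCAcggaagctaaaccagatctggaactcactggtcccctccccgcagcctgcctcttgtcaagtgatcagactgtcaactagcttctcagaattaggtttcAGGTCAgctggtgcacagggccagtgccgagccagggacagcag
Fabp3 (chr4:130308488-130308737, plus strand): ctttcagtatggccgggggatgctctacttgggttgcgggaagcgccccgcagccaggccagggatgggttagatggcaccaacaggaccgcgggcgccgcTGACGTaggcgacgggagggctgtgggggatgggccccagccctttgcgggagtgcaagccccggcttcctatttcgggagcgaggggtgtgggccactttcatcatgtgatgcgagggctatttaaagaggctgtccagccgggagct

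AGGTCA stood 14 to 9 bases before the Ucp1 start and at 149 to 144 and 44 to 39 bases before the Ucp3 start. It also stood 201 to 196 bases before the start of Letmd1. TGACGT stood 149 to 144 bases before the RefSeq start of Fabp3, which lies inside the GENCODE gene. The promoters of Ucp2, Gk, S100b and Prdm16 held neither. AGGTCA was in 14% and TGACGT in 6.47% of 32851 RefSeq mouse promoters of the same length. AAGGTCA, the longer half-site of estrogen-related receptors, which overlaps AGGTCA, is in 4.08% of all promoters and was in none of the 8. A palindromic early B-cell factor site (0.779% of all promoters) and the exact letters TATAAA, a form of the TATA box (12.4%), were in none of the 8 either. Other forms of the TATA box were not searched, and the Ucp1 sequence above holds tatata. The Ucp1 enhancer known from mice lies further upstream, outside this window.

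The libraries held 15775398 to 21961724 reads in genes. Levels below are normalized read counts, the reads of a gene divided by 1 size factor per library, and 1 read was worth 0.878 to 1.217 of them. Differences are log2 fold changes of normalized count + 1, with the standard error (SE) of the limma fit, a scale that understates changes of low genes. Rbm43 averaged 43.2 ± 15.1 with Cre virus and Rbm43 siRNA and 45.2 ± 2.08 with GFP virus and Rbm43 siRNA, against 205 ± 27.4 with GFP virus and control siRNA (SD, n = 2 each). Ppargc1a averaged 466 ± 4.28, 411 ± 16.6 and 183 ± 27.4 in the same 3 groups. Between Cre and GFP virus the log2 fold change of Ppargc1a was 0.18 ± 0.10 SE, so its count was not lower with Cre virus. The labels do not say which exons are floxed. A count over the whole gene therefore does not check the excision, and the libraries labelled Cre virus are taken at their label. Mature adipocyte markers such as Fabp4 and Plin1 were read in every library. Their sum over 10 genes was 355438 and 356197 with Cre virus and Rbm43 siRNA and 411311 and 421355 with GFP virus and Rbm43 siRNA, against 333919 and 319034 with GFP virus and control siRNA. In bulk RNA, fewer cells of a type and less RNA per cell cannot be told apart.

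Ucp1 was at its highest with Rbm43 siRNA and GFP virus, and lay between the other groups when Cre virus was given with Rbm43 siRNA. The gene lies on chromosome 8 from 83290352 to 83298452 on the plus strand (mm10, as are all gene positions here). It had 445 and 459 normalized counts with Cre virus and Rbm43 siRNA and 1043 and 909 with GFP virus and Rbm43 siRNA, against 284 and 248 with GFP virus and control siRNA. No library of one group fell within the range of another. The means were 452 ± 9.90, 976 ± 95 and 266 ± 25.2 (SD, n = 2 each). Under GFP virus the level with Rbm43 siRNA was 3.66 times that with control siRNA (log2 fold change 1.87 ± 0.09 SE). With Cre virus the level was 0.465 times that with GFP virus (log2 fold change -1.10 ± 0.09), and it was still 1.70 times that of the control siRNA cells (0.77 ± 0.09). Leaving out any 1 library kept these differences between 1.77 and 1.97, between -1.20 and -1.01, and between 0.67 and 0.86. Mature adipocyte markers moved in the same directions and their part in the Ucp1 difference was not tested: 8 of 10 rose and 0 fell with Rbm43 siRNA (median log2 fold change 0.29), and 0 rose and 7 fell with Cre virus (median -0.26). The count with Cre virus was 4 of 10 without either Cre library.

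Ucp2 showed no such pattern. It lies on chromosome 7 from 100493337 to 100502020 on the plus strand. It had 1387 and 1314 normalized counts with Cre virus and Rbm43 siRNA and 1666 and 1585 with GFP virus and Rbm43 siRNA, against 1804 and 1513 with GFP virus and control siRNA. The 2 GFP virus groups overlapped, and both Cre libraries lay below all 4 others. Between Rbm43 siRNA and control siRNA the log2 fold change was -0.02 ± 0.07 SE (limma adjusted p = 0.852), with a 95% interval of -0.17 to 0.12 that leaves out a rise of the size seen for Ucp1 or Ucp3. It fell with Cre virus, by 0.27 on the log2 scale against GFP virus (adjusted p = 0.0207) and by 0.29 against control siRNA cells (adjusted p = 0.00765). The fall against GFP virus missed the threshold when any 1 of the 4 Rbm43 siRNA libraries was left out, with adjusted p of 0.153 and 0.0734 without GFP virus replicates 1 and 2 and 0.135 and 0.310 without Cre virus replicates 1 and 2. The fall against control siRNA cells did so without control replicate 1 (log2 fold change -0.16, adjusted p = 0.0568) and without Cre virus replicate 1 or 2 (adjusted p = 0.0665 and 0.159).

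Ucp3, 6905 bases upstream of Ucp2 on the same strand (100472990 to 100486432), rose with Rbm43 siRNA and stayed above control siRNA in the Cre virus libraries. It had 159.5 and 154 normalized counts with Cre virus and Rbm43 siRNA and 182.6 and 182.8 with GFP virus and Rbm43 siRNA, against 105 and 96.2 with GFP virus and control siRNA. The 3 groups did not overlap. The rise with Rbm43 siRNA was 1.81-fold (log2 fold change 0.86 ± 0.13 SE, limma adjusted p = 4.3e-05), and Cre virus libraries were 1.55 times the control siRNA cells (0.63 ± 0.13, adjusted p = 0.00152). The difference between Cre and GFP virus was -0.22 ± 0.13 (adjusted p = 0.341), with a 95% interval of -0.48 to 0.04. Both called rises held with any 1 library left out. Of the 10 skeletal muscle markers, the other tissue known for Ucp3 and Fabp3, Myog, Ckm and Myh4 were at 0 in every library and 3 had enough reads to test. Their sum was 904 and 965 with Cre virus and Rbm43 siRNA and 702 and 613 with GFP virus and Rbm43 siRNA, against 676 and 623 with GFP virus and control siRNA. Of the 3 tested, 0 changed with Rbm43 siRNA, and 1, Acta1, rose with Cre virus. The part of such cells in the Ucp3 and Fabp3 levels was not tested.

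**Figure D1:**
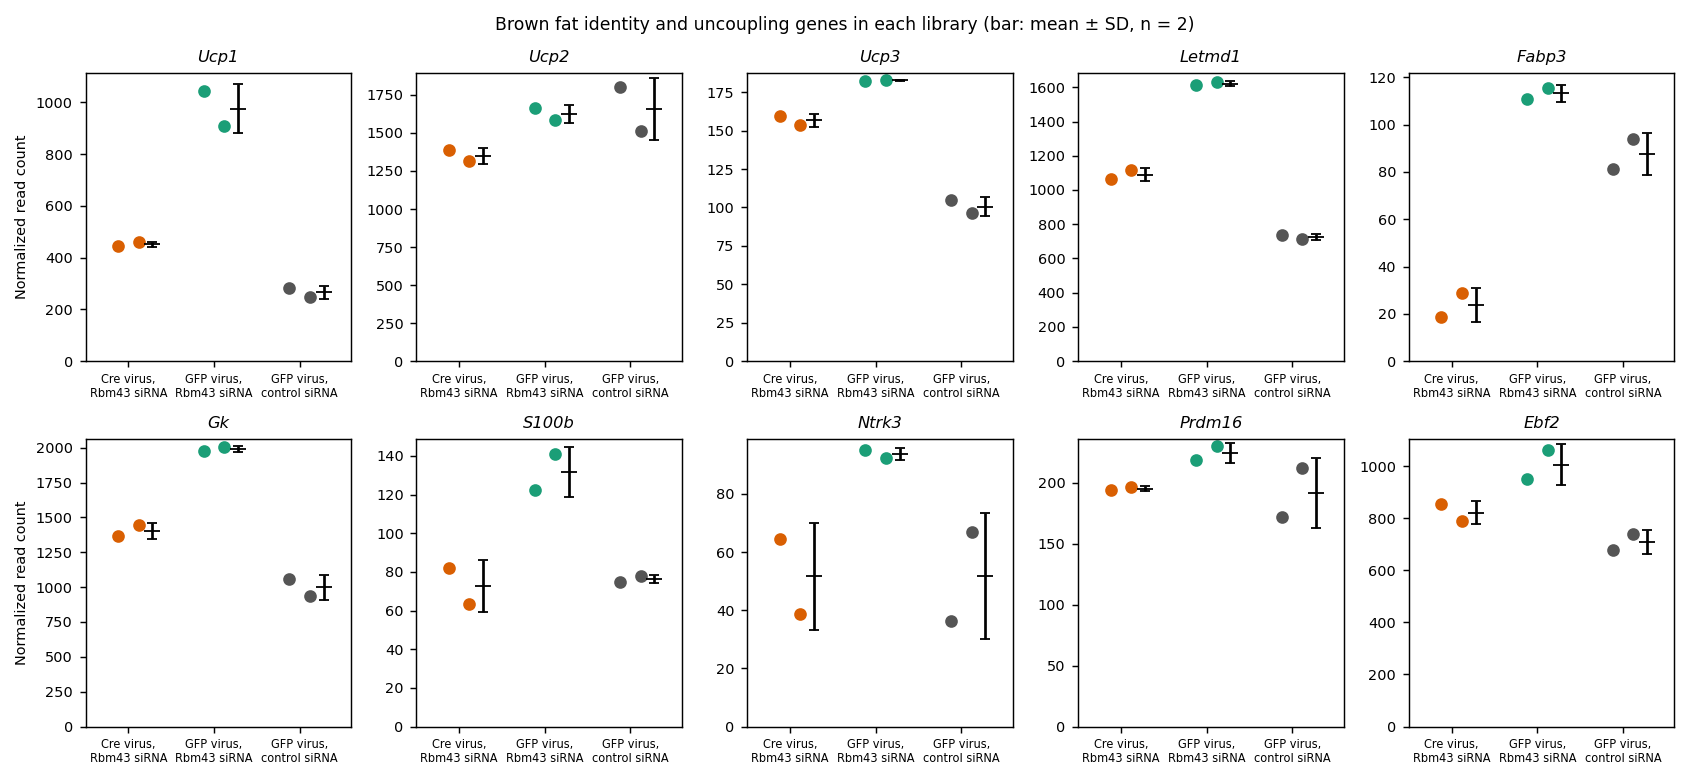
Normalized read count (y axis, from 0) of each of the 10 genes in each of the 6 libraries, by group on the x axis, with the mean and SD of 2 libraries beside the points. Ucp1, Letmd1, Gk and Ucp3 are highest with GFP virus and Rbm43 siRNA and lie between the other groups with Cre virus, Fabp3 is lowest with Cre virus, and the GFP virus groups overlap for Ucp2.

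Letmd1 encodes a mitochondrial protein that mice need for brown fat thermogenesis (chromosome 15, 100469023 to 100479164, plus strand). It had 1063 and 1115 normalized counts with Cre virus and Rbm43 siRNA and 1612 and 1631 with GFP virus and Rbm43 siRNA, against 739 and 713 with GFP virus and control siRNA. The groups lay far apart and the replicates close together, with SDs of 37.1, 13.8 and 17.9 around means of 1089, 1622 and 726. Like Ucp1, it was highest with Rbm43 siRNA and GFP virus, 2.23 times the control siRNA level (log2 fold change 1.16 ± 0.06 SE). With Cre virus it was 0.672 times the GFP virus level (-0.57 ± 0.06) and 1.5 times the control siRNA level (0.58 ± 0.06).

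Gk encodes glycerol kinase, which turns glycerol back into glycerol 3-phosphate and is known to be higher in brown than in white fat (chromosome X, 85701937 to 85776819, minus strand). It had 1364 and 1446 normalized counts with Cre virus and Rbm43 siRNA and 1974 and 2005 with GFP virus and Rbm43 siRNA, against 1060.0 and 936 with GFP virus and control siRNA. These groups did not overlap either. The level with Rbm43 siRNA was 2.00 times that with control siRNA (log2 fold change 1.00 ± 0.06 SE). With Cre virus it was 0.706 times that with GFP virus (-0.50 ± 0.06) and 1.41 times that with control siRNA (0.50 ± 0.06). Gykl1, a related kinase gene whose reads could be confused with those of Gk, was at 0 in every library.

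Fabp3 was the gene with the widest difference by virus. It encodes the heart-type fatty acid binding protein, a cytosolic carrier that brings fatty acids to mitochondria in heart, muscle and brown fat (chromosome 4, 130308595 to 130315463, plus strand). It had 18.6 and 29.0 normalized counts with Cre virus and Rbm43 siRNA and 111 and 116 with GFP virus and Rbm43 siRNA, against 81.1 and 93.7 with GFP virus and control siRNA. Both Cre libraries lay far below all 4 GFP virus libraries. These levels rest on 19 to 124 reads per library. With Cre virus the level was 0.212 times that with GFP virus (log2 fold change -2.24 ± 0.21 SE) and 0.275 times that of the control siRNA cells (-1.86 ± 0.21). Rbm43 siRNA alone made a difference of 0.37 ± 0.21, which has a 95% interval of -0.07 to 0.81. Fabp3 therefore had its lowest level in the group in which Ucp1, Letmd1, Gk and Ucp3 held their middle level. Without either Cre library the difference between viruses stayed between -1.93 and -2.54.

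S100b encodes a calcium-binding protein that brown adipocytes of mice release and that promotes growth of sympathetic nerve fibres (chromosome 10, 76253853 to 76261159, plus strand). It had 82.2 and 63.2 normalized counts with Cre virus and Rbm43 siRNA and 122 and 141 with GFP virus and Rbm43 siRNA, against 74.9 and 77.9 with GFP virus and control siRNA. The Cre libraries lay on both sides of the control siRNA libraries, and the GFP virus libraries with Rbm43 siRNA lay above both groups. The log2 fold change was 0.77 ± 0.17 SE for Rbm43 siRNA against control siRNA, -0.86 ± 0.17 for Cre against GFP virus, and -0.08 ± 0.17 for Cre virus with Rbm43 siRNA against control siRNA cells. S100b is also a glial gene, so Schwann cell markers were read beside it. Their sum over 9 genes was 393 and 414 with Cre virus and Rbm43 siRNA and 504 and 475 with GFP virus and Rbm43 siRNA, against 509.7 and 540.4 with GFP virus and control siRNA. The defining marker Sox10 had 15.7 and 26.4, 34.0 and 14.9, and 43.7 and 29.2 normalized counts in the same order of groups. Of 6 Schwann markers tested, 0 rose and 1 fell with Rbm43 siRNA (0 without control replicate 2). With Cre virus 0 changed, and 1 fell without either control library. The part of these cells in the S100b difference was not tested.

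Ntrk3 encodes TrkC, the receptor for neurotrophin-3 (chromosome 7, 78175959 to 78738012, minus strand). It had 64.6 and 38.6 normalized counts with Cre virus and Rbm43 siRNA and 95.2 and 92.3 with GFP virus and Rbm43 siRNA, against 36.4 and 66.9 with GFP virus and control siRNA. Replicates of the Cre and control groups differed widely and the 2 groups overlapped, with SDs of 18.4 and 21.6 around means of 51.6 and 51.7. The log2 fold change was 0.91 ± 0.26 SE for Rbm43 siRNA against control siRNA and 0.48 without control replicate 1. For Cre against GFP virus it was -0.89 ± 0.26, and -0.53 without Cre virus replicate 2. Between the Cre and control groups it was 0.02 ± 0.26, and -0.0049 with upper-quartile scaling. The gene rests on 35 to 99 reads per library. Its ligand gene Ntf3 had at most 2.8 normalized counts in any library.

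Ebf2, the transcription factor that marks brown precursors and opens brown fat enhancers, rose with Rbm43 siRNA (chromosome 14, 67233292 to 67430918, plus strand). It had 854 and 789.6 normalized counts with Cre virus and Rbm43 siRNA and 951 and 1062 with GFP virus and Rbm43 siRNA, against 677 and 741 with GFP virus and control siRNA. The 3 groups did not overlap. The rise with Rbm43 siRNA was 1.42-fold (log2 fold change 0.50 ± 0.07 SE, limma adjusted p = 4.1e-05) and held with any 1 library left out. It fell with Cre virus, by 0.29 on the log2 scale (adjusted p = 0.0158), but not without GFP virus replicate 2 of the Rbm43 siRNA cells (-0.21, adjusted p = 0.275) or without Cre virus replicate 1 or 2 (adjusted p = 0.0893 and 0.294). Cre virus libraries differed from control siRNA cells by 0.21 ± 0.07 (adjusted p = 0.0600), which passed the threshold without control replicate 2 (0.28, adjusted p = 0.0089) and with the replicate number as a block (adjusted p = 0.0440).

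Prdm16, the coregulator that steers precursors to brown fat and represses muscle and white fat genes, passed the threshold in none of the 3 comparisons (chromosome 4, 154316125 to 154636873, minus strand). It had 194 and 197 normalized counts with Cre virus and Rbm43 siRNA and 218 and 230.4 with GFP virus and Rbm43 siRNA, against 172 and 212 with GFP virus and control siRNA. The control libraries spanned both Cre libraries. The log2 fold change was 0.23 ± 0.12 SE for Rbm43 siRNA against control siRNA (limma adjusted p = 0.169, 95% interval -0.01 to 0.48), and 0.38 without control replicate 2 (adjusted p = 0.0294). It was -0.20 ± 0.12 for Cre against GFP virus (adjusted p = 0.365, 95% interval -0.45 to 0.05) and 0.03 ± 0.12 between Cre and control cells (adjusted p = 0.895, 95% interval -0.21 to 0.28).

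Set side by side, the 10 genes fell into 3 patterns by level. Ucp1, Letmd1, Gk, Ucp3 and Ebf2 had both Cre libraries below both GFP virus libraries with Rbm43 siRNA and above both control siRNA libraries. S100b, Ntrk3 and Prdm16 had Cre libraries that overlapped the control siRNA libraries. Fabp3 and Ucp2 had Cre libraries below both other groups. The 3 comparisons share libraries, and each is given with its own values. Such separation of 2 libraries from 2 was common among 14208 tested genes. Under GFP virus, Rbm43 siRNA libraries lay above both control siRNA libraries in 29.2% and below them in 29.2%. Cre libraries lay above both GFP virus libraries with Rbm43 siRNA in 26.2% and below them in 27.5%. Cre libraries lay above both control siRNA libraries in 27.4% and below them in 27.2%. The 3 patterns are therefore a description.

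**Figure D2:**
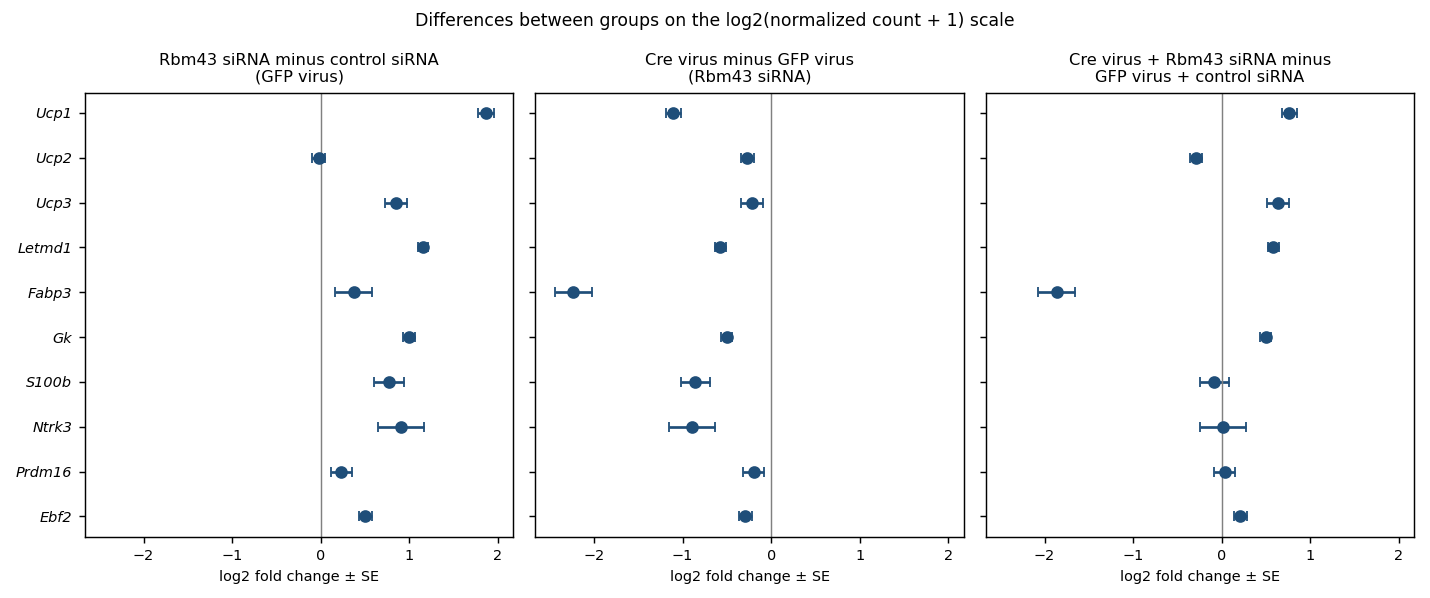
Log2 fold change of normalized count + 1 (x axis) for each of the 10 genes (rows), with the standard error of the limma fit as bars, in the 3 comparisons from left to right. Differences run from -0.02 (Ucp2) to 1.87 (Ucp1) for Rbm43 siRNA, all lie below 0 for Cre virus with Fabp3 lowest at -2.24, and lie on both sides of 0 against control siRNA cells.

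All 10 genes passed the filter of at least 10 normalized counts in at least 2 libraries, as did 14211 genes in all. With Rbm43 siRNA against control siRNA, 7 of the 10 were called higher, 0 lower and 3 neither at a limma adjusted p under 0.05. Of all genes tested 23.2% were called, 13.5% higher and 9.76% lower. With upper-quartile scaling the calls over all genes were 1603 higher and 1861 lower, and with total scaling 1678 and 1679, in place of 1914 and 1387. With Cre against GFP virus, 0 of the 10 were called higher, 8 lower and 2 neither, where 8.50% of all genes were called, 2.62% higher and 5.88% lower. Total scaling gave 565 higher and 734 lower there, in place of 372 and 836. Against control siRNA cells, the Cre virus libraries had 4 of the 10 called higher and 2 lower, where 14.7% of all genes were called, 8.47% higher and 6.28% lower. The median log2 fold change of the 10 genes was 0.81, -0.54 and 0.12 in the 3 comparisons, and that of all genes tested was -0.01, 0.00 and 0.00. The genes were chosen from these contrasts, so nothing is read from their counts. In the comparison of Cre with GFP virus, limma without a mean-variance trend called 0 of all genes, although 2355 had an unadjusted p under 0.05. There edgeR called 8 of the 10 and 1336 genes in all. DESeq2 called 838 in all and 5 of the 10, which were all those to which it gave an adjusted p: it gave none for Ucp3, Fabp3, S100b, Ntrk3 and Prdm16. Without 1 library at a time the count of the 10 called there was between 4 and 8, and it was 4 without GFP virus replicate 2 of the Rbm43 siRNA cells and 4 without Cre virus replicate 2.

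The genes whose profile over the 6 libraries came nearest to that of Ucp1 were sought among 11636 genes with a mean of at least 50 normalized counts. The measure was the root mean square difference, in log2 units, between profiles centred on their own mean. Nearest was Cidea at 0.104, a lipid droplet protein of brown fat, with 788 and 795 normalized counts with Cre virus and Rbm43 siRNA and 1836 and 1893 with GFP virus and Rbm43 siRNA, against 488 and 415 with GFP virus and control siRNA. Then came Gm5627 at 0.154, the inositol monophosphatase gene Impa2 at 0.187, the carbonic anhydrase gene Car2 at 0.223 and Ppara, a nuclear receptor for fatty acids, at 0.248. For Fabp3 the nearest profiles were further off. They were BC024063 at 0.615, A530053G22Rik at 0.656, the histamine methyltransferase gene Hnmt at 0.676 and the fatty acid receptor gene Ffar4 at 0.688. Ffar4 had 163 and 174 normalized counts with Cre virus and Rbm43 siRNA and 279.7 and 284 with GFP virus and Rbm43 siRNA, against 248 and 245 with GFP virus and control siRNA. These 4 were lowest with Cre virus, by log2 fold changes of -0.67 to -0.85 against GFP virus, smaller than the -2.24 of Fabp3.

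**Figure D3:**
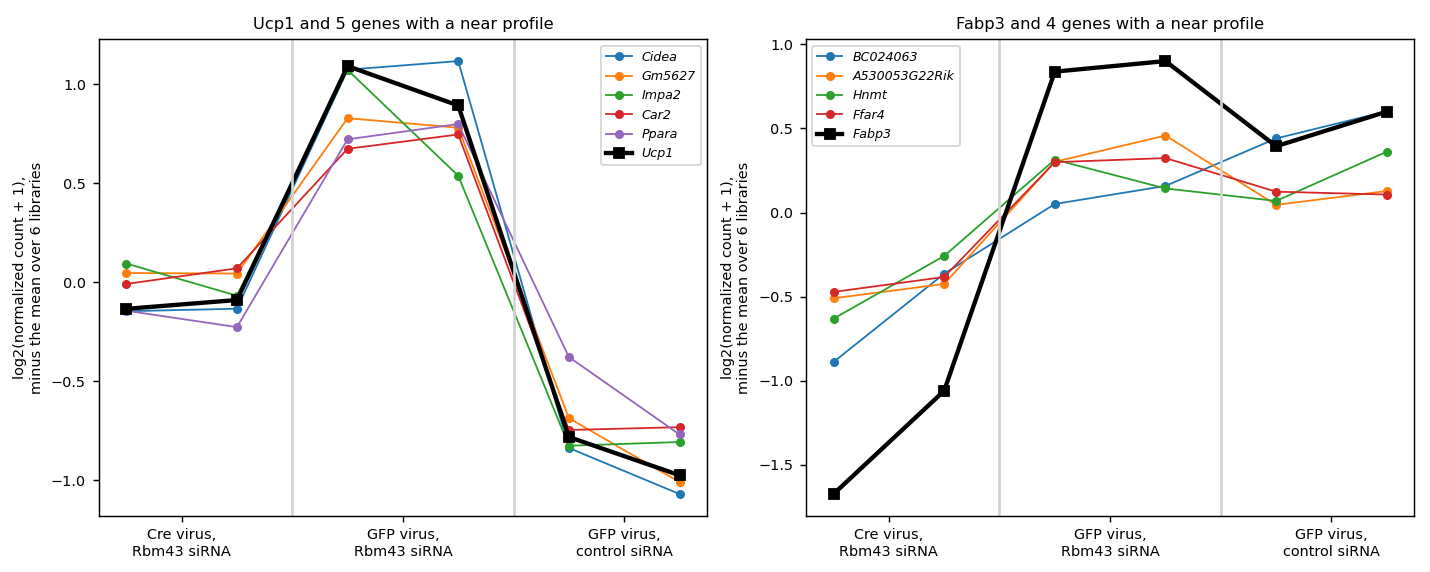
Profiles over the 6 libraries (x axis, 2 points per group) of Ucp1 (left) and Fabp3 (right), in black, and of 5 genes near Ucp1 and 4 near Fabp3, as log2(normalized count + 1) minus the gene's mean over the libraries (y axis). The profiles near Ucp1 lie within 0.104 to 0.248 log2 units of it, and those near Fabp3 keep its low values with Cre virus at a smaller size, 0.615 to 0.688 log2 units away.

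Other genes of the same pathways were read from lists that leave these 10 out. The lists are not separate, and a shared gene is counted in each. Clstn3 is in the brown and beige list and in the innervation list. Pparg, Fabp4, Lipe and Pnpla2 are each in a pathway list and among the mature adipocyte markers. Counts of these lists, and of the marker lists, stand beside the shares of all genes called. Those were 13.5% higher and 9.76% lower with Rbm43 siRNA, and 2.62% and 5.88% with Cre against GFP virus. Against control siRNA cells they were 8.47% and 6.28%. Most genes named from a list were picked for the smallest p over the 3 comparisons, so their p-values are descriptive. Of 30 further brown and beige fat genes, 27 could be tested. Rbm43 siRNA raised 12 of them and lowered 2, with a median log2 fold change of 0.33, beside -0.01 for all genes tested. Cidea rose by 2.05 ± 0.07 (SE, limma adjusted p = 5.92e-13), Ppara by 1.33 ± 0.09 (adjusted p = 3.92e-09) and Ppargc1b, which encodes the PGC-1alpha relative PGC-1beta, by 1.07 ± 0.08 (adjusted p = 1.97e-08). Adrb3, the beta-3 adrenergic receptor through which noradrenaline acts on mouse adipocytes, went the other way and fell by 0.69 on the log2 scale (adjusted p = 5.57e-08). It averaged 931 ± 17.1 normalized counts with Cre virus and Rbm43 siRNA and 983 ± 6.37 with GFP virus and Rbm43 siRNA, against 1589.8 ± 7.05 with GFP virus and control siRNA (SD, n = 2 each). With Cre virus against GFP virus, 0 of the 27 rose and 12 fell, with a median of -0.38. Cidea fell by 1.24 on the log2 scale (adjusted p = 1.46e-08) and Ppara fell by 0.95 (adjusted p = 2.31e-06), and Adrb3 had -0.08 ± 0.06 (adjusted p = 0.493). Against control siRNA cells the Cre libraries had 6 of the 27 higher and 5 lower. Without Cre virus replicate 1 these counts were 3 and 2, and without replicate 2 they were 3 and 3. Zic1, a gene that marks classical brown fat in mice, had between 0.933 and 4.86 normalized counts in every library and was not tested.

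Of 49 transcriptional regulators of the brown fat program, 44 were tested. With Rbm43 siRNA 11 rose and 2 fell, with a median log2 fold change of 0.07, and 7 rose without GFP virus replicate 2 of the Rbm43 siRNA cells. The number that fell was 1 without replicate 1 of that group or without either Cre library. Pparg, the receptor that drives adipocyte differentiation, rose by 0.64 ± 0.05 (SE, limma adjusted p = 2.22e-08) and Esrra, the estrogen-related receptor alpha, by 0.62 ± 0.08 (adjusted p = 1.15e-05). Rb1, the retinoblastoma gene, rose by 0.46 ± 0.06 (adjusted p = 7.94e-06). Cebpa fell by 0.36 on the log2 scale (adjusted p = 3.08e-05). With Cre virus 0 rose and 6 fell (median -0.01), and 2 fell without GFP virus replicate 2 or without either Cre library. Without either control library 1 rose. Pparg was among those that fell, by 0.37 on the log2 scale (adjusted p = 9.48e-05).

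The relatives of the uncoupling proteins among mitochondrial carriers, with the adenine nucleotide carriers, made a list of 17, of which 16 were tested. With Rbm43 siRNA 8 rose and 2 fell, with a median log2 fold change of 0.28. Slc25a5, an ADP/ATP exchanger of the inner membrane, rose by 0.50 ± 0.05 (SE, limma adjusted p = 2.21e-07), and Slc25a25, which carries ATP-Mg for phosphate, rose by 0.66 ± 0.07 (adjusted p = 6.12e-07). Slc25a11, the oxoglutarate carrier, rose by 0.36 ± 0.05 (adjusted p = 5.08e-05). The number that fell was 1 without control replicate 2 or without GFP virus replicate 2 of the Rbm43 siRNA cells. With Cre virus 0 rose and 6 fell, with a median of -0.24. Slc25a20, which brings acylcarnitines into mitochondria, fell by 0.51 on the log2 scale (adjusted p = 1.99e-05) and Slc25a5 fell by 0.39 (adjusted p = 2.63e-05). Without either control library 1 rose and 10 fell, and 3 fell without Cre virus replicate 2.

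Around Gk, 10 of 12 genes of glycerol handling were tested. With Rbm43 siRNA 6 rose and 2 fell, with a median log2 fold change of 0.23. The glycerol 3-phosphate dehydrogenase genes Gpd1 and Gpd2 rose by 0.85 ± 0.06 (SE, limma adjusted p = 7.26e-09) and 0.71 ± 0.06 (adjusted p = 1.11e-07). The glycerol channel gene Aqp7 and the glyceroneogenic enzyme gene Pck1 fell, by 0.36 and 0.39 on the log2 scale (adjusted p = 0.000577 and 0.000323). With Cre virus 0 rose and 6 fell (median -0.26), or 3 without Cre virus replicate 1. Aqp7 fell by 0.41 on the log2 scale (adjusted p = 0.0006) and Gpd2 fell by 0.39 (adjusted p = 0.000437).

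Of 17 neurotrophin, receptor and innervation genes, read beside S100b and Ntrk3, 14 were tested. With Rbm43 siRNA 2 rose and 2 fell, with a median log2 fold change of 0.05, with 4 rising without control replicate 1 and 1 falling without GFP virus replicate 1 of the Rbm43 siRNA cells. Clstn3, whose locus also gives a mouse protein that promotes S100B secretion from brown adipocytes, rose by 0.82 ± 0.12 (SE, limma adjusted p = 6.12e-05), and Ntrk2, the receptor of the neurotrophin BDNF, rose by 0.58 ± 0.10 (adjusted p = 0.000267). Sorcs2, a sorting receptor for neurotrophins, fell by 0.46 on the log2 scale (adjusted p = 2.95e-05). With Cre virus 2 rose and 4 fell, and 0 rose and 1 fell without GFP virus replicate 2 or without either Cre library. Ngfr, the shared neurotrophin receptor p75, fell by 0.45 (adjusted p = 0.000471).

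Relatives of Fabp3 and S100b were counted in the same way. Of 13 Fabp relatives 7 were tested, with 3 higher (Fabp4, Fabp5 and Fabp12) and 2 lower with Rbm43 siRNA. Fabp5 rose by only 0.13 ± 0.05 (SE, limma adjusted p = 0.0469). Fabp12 had 9.79 and 10.5 normalized counts with Cre virus and Rbm43 siRNA. With GFP virus it had 15.5 and 6.53 with Rbm43 siRNA and 2.08 and 2.43 with control siRNA. It passed the filter only through libraries with Rbm43 siRNA, so nothing is read from its call. The count higher was 1 without GFP virus replicate 1 of the Rbm43 siRNA cells or either Cre library, and the count lower was 1 without control replicate 1 or either GFP virus library with Rbm43 siRNA. Fabp4, the main adipocyte form, rose by 0.54 ± 0.06 (SE, limma adjusted p = 1.45e-06) with Rbm43 siRNA. With Cre virus 1 was called higher and 2 lower, with 0 in both directions without Cre virus replicate 1, 0 and 1 without Cre virus replicate 2, 0 and 2 without GFP virus replicate 1, 1 and 1 without GFP virus replicate 2, and 2 and 2 without either control library. Fabp4 differed there by -0.25 ± 0.06 (limma adjusted p = 0.0106, and 0.0951 without the filter). Its call was lost without GFP virus replicate 2 of the Rbm43 siRNA cells (-0.25). It was also lost without Cre virus replicate 1 or 2 (-0.23 and -0.26). Of 14 S100 relatives 7 were tested. With Rbm43 siRNA 1 was called higher and 3 lower, and S100a4 fell by 0.47 on the log2 scale (adjusted p = 1.37e-05). The count higher was 0 without any library but control replicate 1, and the count lower was 6 without control replicate 2 and 1 without GFP virus replicate 2 of the Rbm43 siRNA cells. With Cre virus 0 were called higher and 1 lower, S100a1, by -0.38 ± 0.07 (adjusted p = 0.00103, and 0.0625 without Cre virus replicate 2). Higher calls numbered 2 without either control library and 1 without GFP virus replicate 1 of the Rbm43 siRNA cells.

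White fat genes were read as the counterpart. Of 15 such genes 13 were tested, and with Rbm43 siRNA 2 rose and 4 fell, with a median log2 fold change of -0.12. Retn, the adipokine resistin, fell by 1.56 on the log2 scale (limma adjusted p = 6.48e-11) and Nnat, the imprinted gene neuronatin, fell by 1.90 (adjusted p = 1.04e-06). Hoxc8 and Agt fell too. Dpt went the other way and rose by 0.32 ± 0.05 (SE, adjusted p = 9.85e-05), and Trim14 was the other gene that rose. With Cre virus 0 rose and 2 fell (median -0.10), and 0 fell without either Cre library and 1 without either GFP virus library with Rbm43 siRNA. Retn averaged 436 normalized counts with Cre virus and Rbm43 siRNA and 486 with GFP virus and Rbm43 siRNA, against 1439 with GFP virus and control siRNA (n = 2 each). Between Cre and GFP virus its log2 fold change was -0.15 ± 0.08 (adjusted p = 0.263).

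**Figure D4:**
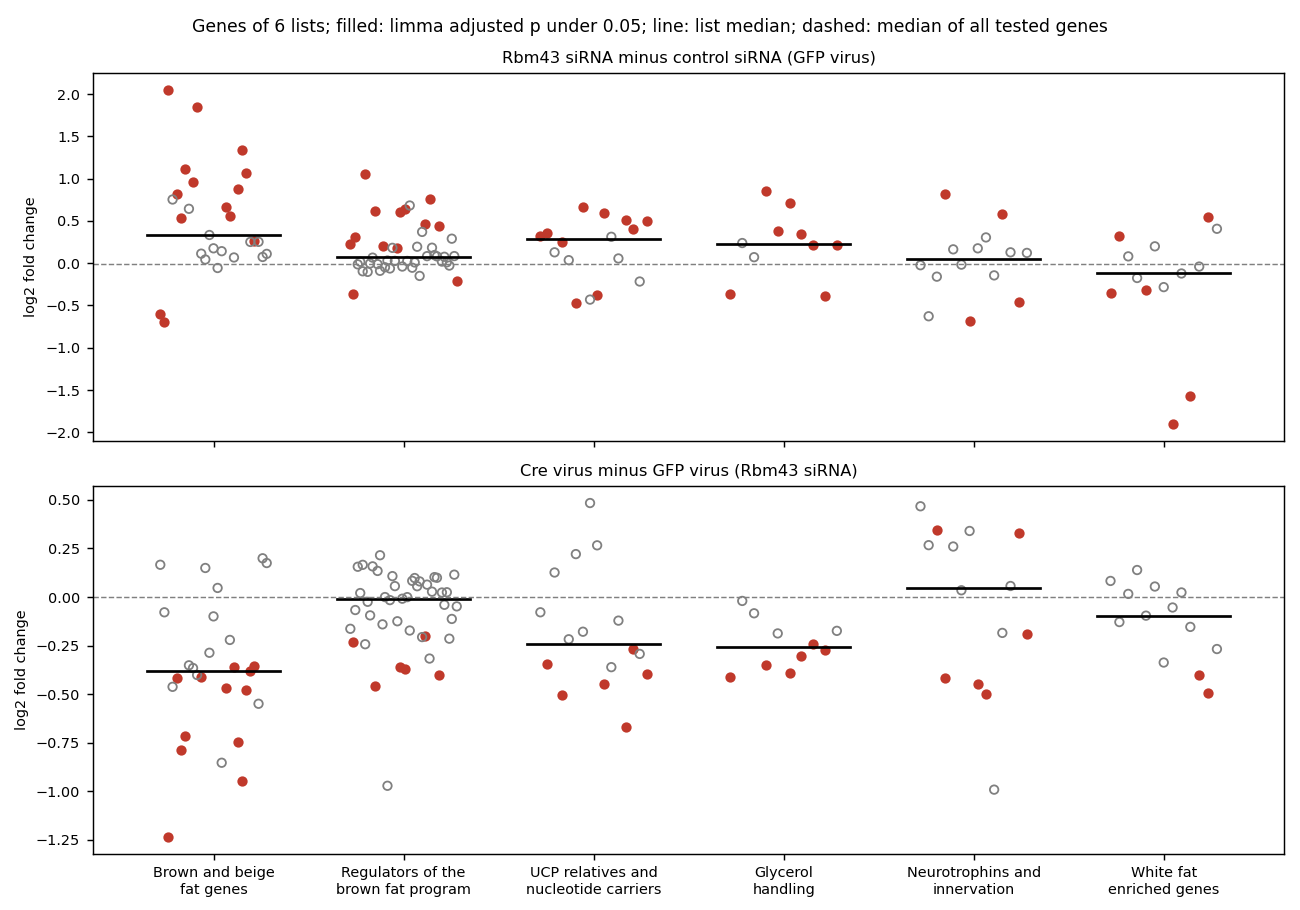
Log2 fold change (y axis) of each tested gene in 6 lists (x axis), for Rbm43 siRNA minus control siRNA under GFP virus (top) and Cre minus GFP virus under Rbm43 siRNA (bottom); filled points passed a limma adjusted p under 0.05, the solid line is the list's median and the dashed line the median of all genes tested. In the brown and beige list the median is 0.33 in the top panel and -0.38 in the bottom panel.

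Genes next to the 10 were examined as well, since neighbours can share reads, and some of them are named here. The strand setting of the counting is not given in the sources used here, so reads in shared exons cannot be assigned for sure. Dnajb13 overlaps Ucp2 on the opposite strand by 305 exon bases. It had 55.8 and 45.7 normalized counts with Cre virus and Rbm43 siRNA and 86.4 and 92.3 with GFP virus and Rbm43 siRNA, against 38.5 and 34.1 with GFP virus and control siRNA. These levels rose with Rbm43 siRNA (log2 fold change 1.28 ± 0.20 SE, limma adjusted p = 8.34e-05) and fell with Cre virus by 0.81 (adjusted p = 0.013), where Ucp2 itself had -0.02 ± 0.07 and -0.27 ± 0.07. On the far side of Ucp3, C2cd3 differed by 0.01 ± 0.08 with Rbm43 siRNA and 0.01 ± 0.08 with Cre virus, with no call in either. Zcchc17 shares 81 exon bases with Fabp3 and had log2 fold changes of 0.03 ± 0.08 with Rbm43 siRNA and 0.08 ± 0.08 with Cre virus, also without a call. Beside Ucp1, Elmod2 rose with Rbm43 siRNA by 0.66 ± 0.06 (adjusted p = 3.67e-07). It fell by 0.22 on the log2 scale with Cre virus (adjusted p = 0.0434). On its other side Tbc1d9 had log2 fold changes of -0.29 ± 0.22 and 0.61 ± 0.22 in these comparisons and no call (adjusted p = 0.383 and 0.109). Beside Ntrk3, Mrpl46 rose by 0.40 ± 0.10 with Rbm43 siRNA (adjusted p = 0.00472) and fell by 0.51 with Cre virus (adjusted p = 0.00174). Coa4 beside Ucp2 and Ppp2r2a beside Ebf2 rose with Rbm43 siRNA by 0.60 ± 0.15 and 0.23 ± 0.05 (adjusted p = 0.00672 and 0.00436). Neither was called with Cre virus. Exon bases were also shared by Gm10570 with Fabp3 (80), Gm14764 with Gk (84), B230104I21Rik with Prdm16 (109) and Gm10860 with Ebf2 (424).

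Markers of other cells in the cultures were read for their part in these results, which was not tested. The preadipocyte and fibroblast sum over 10 genes was 628163 and 623551 with Cre virus and Rbm43 siRNA and 600237 and 573861 with GFP virus and Rbm43 siRNA, against 620974 and 616395 with GFP virus and control siRNA. With Rbm43 siRNA 0 of 9 tested rose and 3 fell, and 0 changed with Cre virus. The mural cell sum over 7 genes was 49306 and 51948, 43508 and 42071, and 38985 and 34834 in the same order of groups. With Rbm43 siRNA 4 of its 7 genes rose, and 4 of 7 rose with Cre virus, or at most 1 without GFP virus replicate 2 or either Cre library. The endothelial sum over 7 genes was 322 and 354 with Cre virus and Rbm43 siRNA and 282 and 287 with GFP virus and Rbm43 siRNA, against 253 and 259 with GFP virus and control siRNA, with no overlap between groups. Of 6 endothelial genes tested, 0 changed with Rbm43 siRNA and 0 with Cre virus, where 1 rose without either control library. Against control siRNA cells 1 was higher with Cre virus, Kdr, with 2 higher without control replicate 1 and 0 without Cre virus replicate 2. The macrophage sum over 10 genes lay between 1631 and 1942 in all libraries, and the groups overlapped. With Rbm43 siRNA 0 of the 10 macrophage genes rose and 3 fell (Csf1r, Cd14 and Itgam). The number that fell was 1 without control replicate 1 or without GFP virus replicate 2 of the Rbm43 siRNA cells, and 1 rose without control replicate 2. None of the 10 changed with Cre virus against GFP virus, where 1 rose without either control library or without GFP virus replicate 1 of the Rbm43 siRNA cells. Against control siRNA cells, 0 were higher with Cre virus and 1 was lower, Cd14, or 0 without control replicate 1 or without any 1 of the 4 Rbm43 siRNA libraries, and 1 was higher without control replicate 2. The neuron sum over 7 genes lay between 705 and 964, and its markers Rbfox3 and Th were at 0 in every library. Of 3 tested, 1 fell with Rbm43 siRNA (Tubb3), or 0 without GFP virus replicate 2, and 0 changed with Cre virus.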

How the data were processed

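RNA of 6 libraries of primary mouse adipocytes was made into stranded mRNA libraries and sequenced as paired ends, per the labels. The deposited table holds, per gene, a signal that the authors made by dividing read counts by 1 size factor per library. The submitters' processing notes name STAR 2.7.8, fastp 0.23.2, DESeq2 2.11.40.7 and the build mm10. Which counter, annotation and strand setting were used is not given in the sources used here, and reads of overlapping or antisense genes may therefore be misplaced. All values (100% in each library) were whole multiples of 1 read within 0.01 read, which gave back the reads and the depth. In 13032 rows all 6 values were 0, and 27 rows had symbols turned into dates.

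Groups and replicate numbers came from the labels. Differences were tested on log2(normalized count + 1) of the deposited values by limma 3.58.1 in R 4.3.3, with its trend option for the variance. Genes with at least 10 normalized counts in at least 2 libraries entered 1 fit of all 6 libraries with 1 mean per group, with Benjamini-Hochberg adjustment at 0.05. The procedure was run on simulated counts with the same spread for all genes and groups. The chi-square per degree of freedom between real replicates differed by group. It was 4.19 with control siRNA, 2.76 with GFP virus and Rbm43 siRNA and 1.77 with Cre virus. The simulation therefore does not check the spread shared by the groups in the fit. On the recovered reads, edgeR 4.0.16 called 3263, 1336 and 2111 genes in the 3 comparisons, against 3301, 1208 and 2096 by limma, and DESeq2 1.42.0 was run as well. Other alternatives were pseudocounts of 0.5 and 5, no filter, a minimum of 50, upper-quartile and total scaling, the replicate block, fits of 2 groups, no trend, and each library left out. List counts without each library were added after seeing the data.

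The 10 genes, the lists and the marker lists were chosen with earlier results of these data known. Named besides the 10 genes were Rbm43 and Ppargc1a, up to 4 genes per list with the smallest p over the 3 comparisons, the 5 genes nearest in profile to Ucp1 and to Fabp3 (1 of them is not reported here), and neighbours in GENCODE M21. Any other gene named was chosen after its values were seen. Promoters came from RefSeq (GRCm38.p6). Genes of different length were not compared in level.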

Additional observations from a re-analysis of the deposited data

How the results depend on the processing

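Cre against GFP virus had 1208 calls over all genes, 609 without the filter, 2070 when only the 2 groups compared were fitted, 0 without the mean-variance trend, and 310 to 2067 with 1 library left out. Of the 10 genes, 8 were called there, 5 without the filter, 5 with DESeq2, 0 without the trend and 4 to 8 with 1 library left out. DESeq2 gave no adjusted p for Ucp3, Fabp3, S100b, Ntrk3 and Prdm16 in it and called the other 5. Rbm43 siRNA against control siRNA had 3301 calls, 1304 without the trend, 2035 with DESeq2 and 2101 to 3634 with 1 library left out. Cre virus with Rbm43 siRNA against control siRNA cells had 2096 calls, 1251 without the filter, 433 without the trend, 1220 with DESeq2 and 765 to 2647 with 1 library left out. A library left alone in its group is assumed to vary like the other groups.

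Some log2 fold changes changed sign. With 1 library left out, that of Ucp2 ran from -0.15 to 0.10 and that of Hnmt from -0.13 to 0.16 for Rbm43 siRNA, and Hnmt had -0.023 with upper-quartile and -0.012 with total scaling. For Cre against GFP virus, Fabp12 ran from -0.57 to 0.048, Nnat from -0.18 to 0.077 and Rbm43 from -0.46 to 0.25. Fabp12 also had 0.0054 with a pseudocount of 0.5, 0.014 with upper-quartile and 0.023 with total scaling. Against control siRNA cells, Crabp1 ran from -0.20 to 0.14, Ntrk3 from -0.41 to 0.45, Prdm16 from -0.12 to 0.19 and S100b from -0.27 to 0.10, and upper-quartile scaling gave -0.0049 for Ntrk3 and -0.011 for Slc25a11. Other scalings moved the median of all genes by at most 0.04. The causes were not tested.

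The labels do not say whether the replicate numbers pair the libraries. Deviations from the group means over 11640 genes correlated at 0.109, -0.0496 and -0.0558 between groups, which shows no strong pairing. With 2 libraries per group, a weak pairing could go unseen. With the replicate number as a block, 3412, 1304 and 2214 genes and 7, 8 and 7 of the 10 were called. Precision is limited by 2 libraries per group and, for the lowest of the 10 genes, by 19 to 124 reads of Fabp3, 35 to 99 of Ntrk3 and 64 to 151 of S100b per library. What size of difference these allow was not tested.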
